A study of Homo sapiens with 6 samples.

Results

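The cathepsins described here are 10 genes, CTSA, CTSB, CTSC, CTSD, CTSF, CTSH, CTSL, CTSS, CTSV and CTSZ, taken by name from a deposited table of 57281 genes. Of these, 8 were found under the current symbol. The other 2 stand in the table under older symbols, CTSL as CTSL1 and CTSV as CTSL2, and were matched by Ensembl identifier. Each of the 10 names stands on a single line of the table. The RNA was from HaCaT, an established human keratinocyte line that became immortal without a transgene. Each group had 3 biological replicates. The cytokine TGF-β1 (transforming growth factor β1) was present in all 6 cultures, at 10 ng/ml over 24 h. In 1 group it was given alone, and in the other it was combined with silymarin, a milk thistle extract, at 31.25 µg/ml. Poly(A) RNA was sequenced. Every difference below is silymarin on top of TGF-β1, in a single cell line, and no culture without TGF-β1 was analysed here.

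Cathepsins are proteases that mostly work in the acid interior of the lysosome. They are made as inactive precursors, tagged with mannose 6-phosphate in the Golgi apparatus, carried to endosomes by receptors and activated there by cleavage. Most are cysteine proteases of the papain family, held in check by cystatins, while cathepsin D is an aspartic protease and cathepsin A a serine carboxypeptidase. In the epidermis, cathepsins D, L and V and the inhibitor cystatin M/E take part in the processing of proteins during cornification, and inherited loss of cathepsin C causes thickening of the skin of palms and soles.

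With silymarin, 8 of the 10 cathepsin genes fell, CTSL rose and CTSA did not pass the threshold. The falls ranged from 1.31 on the log2 scale for CTSS and 0.95 for CTSF to 0.17 for CTSD. The rise of CTSL was 0.35. Calls are an adjusted p under 0.05 from limma, fitted over 17296 genes to log2(normalized count + 1), a scale that understates the change of low genes. All 10 members passed the low-value filter, 10 or more normalized counts in 3 or more libraries. Over all tested genes 34.2% were called, 18.2% lower and 16.0% higher with silymarin. The median log2 fold change was -0.30 over the 10 members and 0.00 over all tested genes. The groups did not overlap for 9 of the 10 members, against 47.1% of tested genes. At an adjusted p under 0.01, 7 members fell and 1 rose, against 22.3% of tested genes called in either direction.

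**Figure D1:**
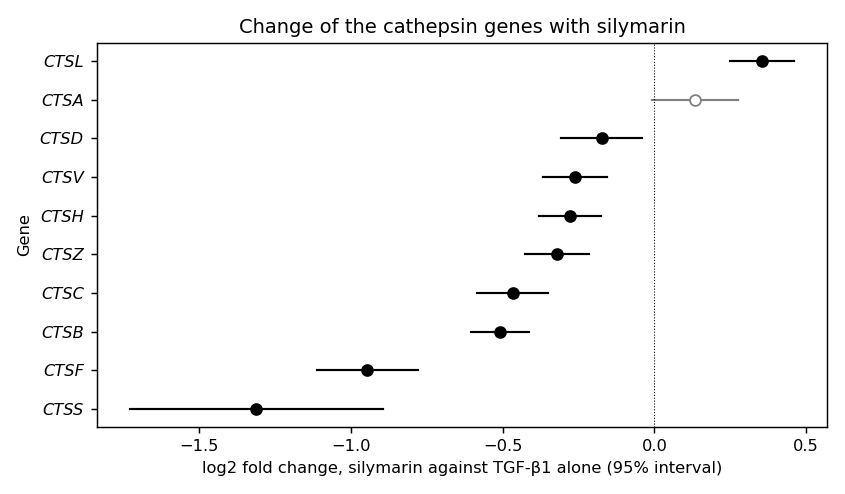
Log2 fold change of each cathepsin gene (x axis, silymarin with TGF-β1 against TGF-β1 alone) with its 95% interval from limma, 3 libraries per group. Filled points passed an adjusted p under 0.05. CTSL alone lies to the right of 0 as a filled point, and CTSS and CTSF lie farthest to the left.

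Among the libraries, reads recovered from the table came to between 20240542 and 30279391 per library. Silymarin replicate 2, the shallowest library, stood apart on the second principal component (25.9, against -13.3 in the other silymarin libraries). The 8 keratinocyte markers KRT5, KRT14, TP63, DSG3, DSP, JUP, SFN and PERP were all measured, with sums of 360169 to 369669 normalized counts with TGF-β1 and 222044 to 242453 with silymarin. Of these markers 7 fell with silymarin, and their part in the falls of the cathepsins was not tested. Without any 1 of the TGF-β1 replicates 6 fell and SFN was lost, in fits that called 25.4% to 27.0% of tested genes. In bulk RNA, fewer cells of a type and less RNA per cell cannot be told apart. The 8 immune cell markers summed to 51.3 to 63.7 normalized counts with TGF-β1 and 62.4 to 71.0 with silymarin. TYROBP was listed at 0 throughout. Of the 2 immune markers that passed the filter, CSF1R had a log2 fold change of -0.01, and CD14 rose by 0.74 (limma adjusted p = 0.0492), a call lost without any 1 library other than silymarin replicate 2. The 7 fibroblast markers summed to 3334 to 3511 normalized counts with TGF-β1 and 1715 to 2055 with silymarin, and DCN was listed at 0. Only COL1A1 of these passed the filter, and it fell by 0.83 (limma adjusted p = 3.96e-07) along with the cathepsins, in which its part was not tested. The 5 melanocyte markers summed to 77.8 to 83.9 and 70.1 to 91.9, with TYR and SOX10 listed at 0.

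CTSL and CTSV are close relatives on chromosome 9 (CTSL at 87725519 to 87731393 and CTSV at 97029679 to 97039643, GENCODE 29 on GRCh38). They moved in opposite directions, so the bases just before their start sites are shown first. The start used here is that of RefSeq (GRCh38.p14), which for both genes lies inside the GENCODE 29 bounds just given. The stretches printed below therefore lie inside those bounds too, and other starts of these genes were not examined. Over the 250 bases before the RefSeq start, the pair had 148 identical bases in an alignment of 209 (70.8%). A run of 23 bases was the same in both. Among all 28 pairs of the 8 members compared (all but CTSB and CTSS), the next longest shared run was 13 bases, in CTSD and CTSH. CTSS had no promoter entry. CTSB was not looked up, because entries on its chromosome, 8, were left out for the members. The shares over all promoters given below were counted without that exclusion. The 120 bases before each start are printed 5′ to 3′ with the shared run in capitals, CTSL from chr9:87725999-87726118 on the plus strand and CTSV from chr9:97039143-97039262 on the minus strand.
CTSL: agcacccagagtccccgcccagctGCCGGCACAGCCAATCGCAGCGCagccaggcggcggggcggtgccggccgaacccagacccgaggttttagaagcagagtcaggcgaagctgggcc
CTSV: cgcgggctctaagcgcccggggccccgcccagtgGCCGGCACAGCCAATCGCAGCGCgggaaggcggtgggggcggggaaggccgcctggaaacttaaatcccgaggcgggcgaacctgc
The run contains the letters CCAAT, which begin 86 bases before the start in CTSL and 76 in CTSV. Searched on both strands, CCAAT occurred in 3 of the 8 member promoters, the third being that of CTSC, and in 32% of 35116 promoters of the same length. A match of letters is not evidence of a bound site.

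A second set is shown because 3 members hold CACGTG, the core of the element recognised by the MiT/TFE transcription factors, which control many lysosomal genes. CACGTG reads the same on both strands. It occurred in the 250 bases before the start of CTSA (at 42 and 25 bases), CTSD (47 bases) and CTSF (123 and 51 bases), 3 of 8 members, against 6.34% of all promoters. The longer form TCACGTG, which contains CACGTG, was searched on both strands and occurred in the same 3 members and in 3.31% of all promoters. The full 10-base CLEAR core, which contains both, occurred in 0 of the 8 member promoters and in 0.308% of all promoters. The GC box GGGCGG occurred in 7 of the 8 and in 42.6% of all promoters. G and C made up 56.4% (CTSF) to 81.2% (CTSZ) of the member promoters, and the shares over all promoters were not matched for this. The 150 bases before the start are printed 5′ to 3′ with CACGTG in capitals, CTSA from chr20:45891185-45891334 on the plus strand, CTSD from chr11:1763928-1764077 and CTSF from chr11:66568607-66568756, both on the minus strand.
CTSA: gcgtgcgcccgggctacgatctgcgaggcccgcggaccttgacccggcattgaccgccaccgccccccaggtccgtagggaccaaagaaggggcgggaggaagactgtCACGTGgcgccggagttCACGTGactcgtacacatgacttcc
CTSD: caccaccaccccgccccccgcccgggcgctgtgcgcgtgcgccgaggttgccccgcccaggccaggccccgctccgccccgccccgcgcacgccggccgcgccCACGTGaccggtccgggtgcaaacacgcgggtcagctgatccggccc
CTSF: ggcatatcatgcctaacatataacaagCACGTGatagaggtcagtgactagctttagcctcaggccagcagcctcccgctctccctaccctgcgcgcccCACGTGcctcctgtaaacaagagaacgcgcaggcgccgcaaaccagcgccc
These 3 genes had log2 fold changes of 0.13 (CTSA, not past the threshold), -0.17 (CTSD) and -0.95 (CTSF), so they did not share a size of change.

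Per kilobase of exon, the most abundant cathepsin with TGF-β1 alone was CTSH, an aminopeptidase, at 5219 ± 77.4 normalized counts per kb (SD, n = 3, as for all levels here). CTSB, which cuts within proteins and also removes dipeptides from their C-terminal ends, followed at 4132 ± 105. The next levels were 1792 ± 43.5 for CTSZ, 1548 ± 24.4 for CTSA, 1101 ± 27.8 for CTSD and 933 ± 25.7 for CTSL. CTSV stood at 453 ± 5.21, CTSC at 288 ± 16.2, CTSF at 190 ± 11.6 and CTSS at 23.1 ± 2.39 normalized counts per kb. No 2 neighbours in this order overlapped in their 3 libraries, so each step was larger than the spread between replicates. With silymarin the order was CTSH, CTSB, CTSA, CTSZ, CTSL, CTSD, CTSV, CTSC, CTSF and CTSS, again with no overlap between neighbours. CTSA had passed CTSZ (1705 ± 179 against 1435 ± 40.4 per kb) and CTSL had passed CTSD (1193 ± 23.4 against 978 ± 83.1). These orders depend on the length used. Per kilobase of the longest transcript, CTSA stood above CTSZ in both groups, CTSD stood above CTSL in both groups, and CTSC stood above CTSV with TGF-β1 alone.

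**Figure D2:**
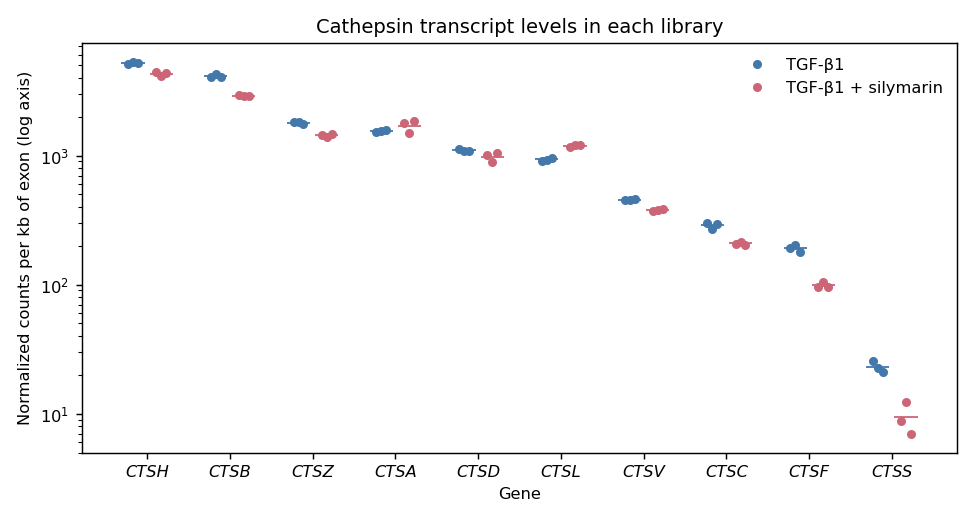
Level of each cathepsin gene in normalized counts per kb of exon (y axis, logarithmic), for the 3 TGF-β1 libraries and the 3 silymarin libraries. Points are libraries and bars are group means. CTSH and CTSB are highest in both groups, CTSS is lowest, and silymarin replicate 2 of CTSA (middle point) is the only silymarin point of that gene below its TGF-β1 points.

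Added together, the 10 genes came to 15583, 15863 and 15591 normalized counts per kb in the TGF-β1 libraries and to 13509, 12672 and 13448 in the silymarin libraries. All silymarin sums were below all TGF-β1 sums. CTSB and CTSH made up 59.6% ± 0.541 of the sum with TGF-β1 and 54.6% ± 0.865 with silymarin. The share of CTSL was 5.95% ± 0.177 and 9.04% ± 0.467, and that of CTSA 9.87% ± 0.212 and 12.9% ± 0.942. The aspartic protease CTSD held nearly the same share, 7.02% ± 0.232 and 7.39% ± 0.391, with overlapping libraries. No test was made on these sums and shares, which describe the libraries. They rest on exon length, and the ± values do not cover the choice of length. Per kilobase of the longest transcript, the level of CTSH with TGF-β1 was 14040 and that of CTSL 1014, so the shares would differ.

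**Figure D3:**
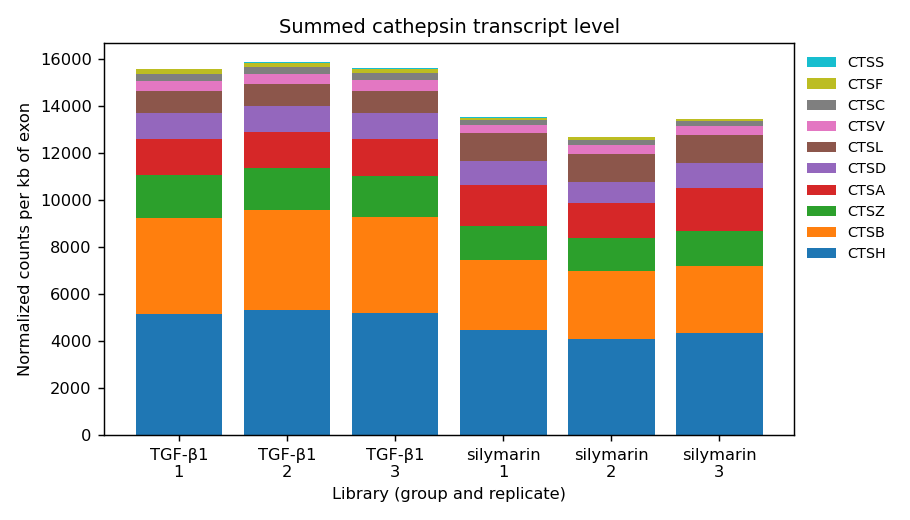
Stacked levels of the 10 cathepsin genes in each library (y axis, normalized counts per kb of exon). The TGF-β1 columns reach 15583 to 15863 and the silymarin columns 12672 to 13509, and CTSH and CTSB form the lower part of every column.

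CTSB (chromosome 8) had 30269, 31593 and 30222 normalized counts with TGF-β1 and 22028, 21337 and 21301 with silymarin. The silymarin libraries lay close together and well below all TGF-β1 libraries. The log2 fold change was -0.51 (SE 0.0448, limma adjusted p = 1.45e-06), and in counts the mean fell by 29.8%. CTSB was the largest loss in normalized counts among the members.

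CTSH (chromosome 15, 78921058 to 78949574) had 30356, 31248 and 30639 normalized counts with TGF-β1 and 26350, 24189 and 25544 with silymarin. It thus began at about the same count as CTSB and ended above it. The log2 fold change was -0.28 (SE 0.0475, limma adjusted p = 0.000491). The CTSB to CTSH ratio was 0.998 ± 0.0124 with TGF-β1 and 0.851 ± 0.0272 with silymarin (ratio of normalized counts, SD, n = 3), with no overlap.

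CTSZ, also called cathepsin X, removes single residues from C-terminal ends (chromosome 20, 58995185 to 59007247). It had 3709, 3699 and 3551 normalized counts with TGF-β1 against 2944, 2833 and 2994 with silymarin. All silymarin libraries were lower, with a log2 fold change of -0.32 (SE 0.0482, limma adjusted p = 0.000177). CTSC, or dipeptidyl peptidase I, activates granule serine proteases of immune cells (chromosome 11, 88293592 to 88337787). It had 3403, 3077 and 3388 normalized counts with TGF-β1 and 2346, 2457 and 2329 with silymarin, a log2 fold change of -0.47 (SE 0.0544, limma adjusted p = 1.93e-05). The lowest TGF-β1 library of CTSC was well above the highest silymarin library.

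CTSF carries a long propeptide with a cystatin-like domain, and its inherited loss causes a neuronal lipofuscinosis (chromosome 11, 66563463 to 66568841). It had 556, 583 and 516 normalized counts with TGF-β1 and 278, 301 and 278 with silymarin. The groups were far apart, with a log2 fold change of -0.95 (SE 0.0774, limma adjusted p = 7.32e-07). In the alternatives tried it stayed between -0.998 and -0.906.

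CTSS is active at neutral pH and, in antigen-presenting cells, trims the invariant chain of MHC class II (chromosome 1, 150730196 to 150765957). It was the least abundant member, with 109, 95.1 and 89.0 normalized counts with TGF-β1 and 37.2, 52.2 and 29.4 with silymarin. All silymarin libraries were lower, and they were more spread than those of the other members in relation to their mean. The log2 fold change was -1.31 (SE 0.193, 95% interval -1.73 to -0.90, limma adjusted p = 0.000151). PTPRC, the leukocyte marker, was listed at 0 to 2.65 normalized counts with TGF-β1 and at 0 to 0.865 with silymarin, while the monocyte marker CD14 moved against CTSS, with 10.6 to 14.5 and 19.1 to 29.4. Of 8 genes of antigen processing with cathepsin S, 2 passed the filter. RFX5, a factor of MHC class II promoters, fell by 0.26 (limma adjusted p = 0.00282), and HLA-DMA had a log2 fold change of 0.03 (limma adjusted p = 0.83). The class II activator CIITA was listed at 2.65, 0 and 8.09 normalized counts with TGF-β1 and at 6.56, 11.5 and 2.60 with silymarin.

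CTSL, a potent endopeptidase found in most tissues, had 2148, 2203 and 2269 normalized counts with TGF-β1 and 2759, 2863 and 2844 with silymarin. All silymarin libraries were higher, and the log2 fold change was 0.35 (SE 0.0490, limma adjusted p = 8.7e-05). CTSV, whose expression in humans is concentrated in thymus, testis, epidermis and cornea, had 2112, 2116 and 2156 with TGF-β1 and 1744, 1774 and 1804 with silymarin. All silymarin libraries were lower, and the log2 fold change was -0.26 (SE 0.0490, limma adjusted p = 0.00101). The 2 genes thus had nearly equal counts with TGF-β1 alone and unequal ones with silymarin. Within a library, the CTSL to CTSV ratio of normalized counts was 1.02, 1.04 and 1.05 with TGF-β1 and 1.58, 1.61 and 1.58 with silymarin. The ratio was not tested, since the pair was picked with these values known.

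**Figure D4:**
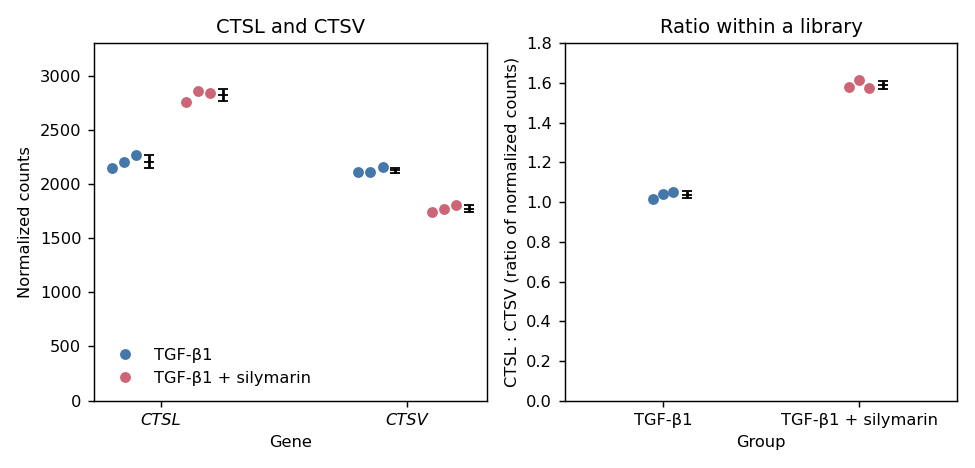
Left, normalized counts of CTSL and CTSV in each library; right, the ratio of CTSL to CTSV within each library, both axes from 0. Points are libraries, and the dash with its bar is the mean ± SD of 3. CTSL is higher and CTSV lower with silymarin, and the ratio goes from 1.02 to 1.05 with TGF-β1 to 1.58 to 1.61 with silymarin.

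Reads of relatives can be mixed up, so the 2 genes were compared by sequence. Their longest open reading frames in GENCODE 29 were 1002 bases for CTSL and 1005 for CTSV, identical at 837 of 1005 aligned positions (83.3%), and the longest identical stretch was 40 bases. No stretch of 50 bases was shared between their transcripts. CTSL shared 16 of 2496 such stretches with other genes, chiefly the pseudogene CTSL3P. No source used here gives the handling of reads with several matches.

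CTSA protects and stabilises the lysosomal enzymes neuraminidase 1 and β-galactosidase in a complex (chromosome 20, 45890144 to 45898820). It had 8962, 9002 and 9227 normalized counts with TGF-β1 and 10377, 8793 and 10780 with silymarin. Silymarin replicates 1 and 3 were above every TGF-β1 library and replicate 2 was below every one. The log2 fold change was 0.13 (SE 0.0655, 95% interval -0.01 to 0.28, limma adjusted p = 0.134). Without silymarin replicate 2 it was 0.22 and passed (limma adjusted p = 9.92e-06), so that 2 of the 10 members rose, in a fit that called 41.8% of all tested genes. Without silymarin replicate 3 it was 0.08 (limma adjusted p = 0.405). Of its partners, NEU1 rose by 0.38 (limma adjusted p = 0.000457), from 1666 ± 17.7 to 2170 ± 193 normalized counts. GLB1 had 908 ± 7.65 and 896 ± 7.20, with a log2 fold change of -0.02 (limma adjusted p = 0.823). Of the exon bases of CTSA, 21.1% overlap exons of opposite-strand genes listed in these data, and no source used here gives the strand setting.

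CTSD, the main aspartic protease of lysosomes (chromosome 11, 1752752 to 1764573), had 3540, 3375 and 3409 normalized counts with TGF-β1 and 3147, 2763 and 3258 with silymarin. The groups did not overlap, but silymarin replicate 2 lay well below the other silymarin libraries. The log2 fold change was -0.17 (SE 0.0612, 95% interval -0.31 to -0.04), and the limma adjusted p of 0.0416 was near the threshold. Leaving out TGF-β1 replicate 1, 2 or 3 or silymarin replicate 1 ended the call (limma adjusted p = 0.149, 0.0873, 0.104 and 0.0563). So did equal column totals (limma adjusted p = 0.0566) and edgeR on 5 libraries, again without TGF-β1 replicate 3 (adjusted p = 0.109). In each of these 6 settings 7 members fell and CTSL rose. The share of all tested genes called in them was 27.0%, 25.4%, 25.7%, 28.9%, 34.8% and 26.1%, in the same order. Without silymarin replicate 3, 8 members fell and 32.0% of tested genes were called. Without silymarin replicate 2 CTSD kept its call at a log2 fold change of -0.10. In GENCODE 29 the same-strand gene AC068580.4 overlaps CTSD, with 76.7 normalized counts with TGF-β1 and 103 with silymarin (means of 3). Exons of same-strand genes cover 41.7% of the exon bases of CTSD. No source used here says how such reads were assigned. Some genes with such overlaps, singled out after their values were seen, were listed near 0. They are ATP6V0C, a proton pump subunit (72.1% of exon bases shared on the same strand, 0 in all 6 libraries), and the immune marker CD68 (81.7%, 0 to 4.42 normalized counts). Not all such genes were near 0, and ATP6V1B1, with 62.4% shared, passed the filter. The 8 members other than CTSA and CTSD shared no exon base with another GENCODE 29 gene listed in these data. Genes of GENCODE 29 not listed in these data were left out of all these shares.

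Of the 5 human cathepsins outside the 10, only CTSK and CTSO passed the filter. CTSK, the collagen-degrading cathepsin of osteoclasts, had 119, 129 and 153 normalized counts with TGF-β1 and 96.3, 99.4 and 106 with silymarin. It fell by 0.40 (SE 0.122, limma adjusted p = 0.0213). Removing TGF-β1 replicate 2 or 3 or silymarin replicate 1 ended that call (limma adjusted p = 0.0505, 0.117 and 0.0656). It was not made by edgeR either, which also left out TGF-β1 replicate 3 (adjusted p = 0.117). CTSO had a log2 fold change of -0.36 (limma adjusted p = 0.12). It passed only without TGF-β1 replicate 3, in limma (-0.51, adjusted p = 0.0492) and in edgeR on the same 5 libraries (-0.53, adjusted p = 0.039). CTSG was listed at 0 in all libraries, CTSE in all but 1 and CTSW in 3 of 6.

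Of 13 genes listed as inhibitors, 6 passed the filter. Among them CSTB and SERPINB13 rose and none fell, with a median log2 fold change of 0.07. CSTB, or stefin B, a cytosolic inhibitor of cysteine cathepsins, had 2450, 2525 and 2437 normalized counts with TGF-β1 and 2858, 2693 and 2999 with silymarin (log2 fold change 0.20, SE 0.0531, limma adjusted p = 0.00887). SERPINB13, or headpin, which inhibits cathepsins L and K, had 13707, 12254 and 13787 and then 16015, 16810 and 17367 (log2 fold change 0.34, SE 0.0551, limma adjusted p = 0.000348). For both genes all silymarin libraries were higher. CST6, which encodes cystatin M/E, the epidermal inhibitor of cathepsins L and V and of legumain, had 440, 523 and 484 and then 462, 451 and 468 normalized counts (log2 fold change -0.06, limma adjusted p = 0.562). The secreted inhibitor gene CST3 had a log2 fold change of -0.06 and CSTA of 0.20 (limma adjusted p = 0.458 and 0.161). The groups overlapped for CST6, CST3 and CSTA. LXN, latexin, is best known as an inhibitor of carboxypeptidases and had -0.12 (limma adjusted p = 0.419), but it fell without silymarin replicate 2 (-0.24, limma adjusted p = 0.0437).

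Of 12 genes of the machinery that brings cathepsins to the lysosome, 3 rose, 2 fell and 7 did not pass, with a median of 0.01. For this list and those that follow, counts of the fit on all 6 libraries stand beside 16.0% of tested genes called higher and 18.2% lower. Counts with 1 library left out stand beside the share of all tested genes called in that fit, in either direction. That share was 27.0%, 25.4% and 25.7% without TGF-β1 replicate 1, 2 and 3. Without silymarin replicate 1, 2 and 3 it was 28.9%, 41.8% and 32.0%. SORT1, sortilin, an alternative sorting receptor, rose by 0.46, from 729 ± 20.0 to 1002 ± 35.1 normalized counts (limma adjusted p = 5.31e-05). PSAP, the precursor of the saposins, rose by 0.22 and M6PR, the smaller mannose 6-phosphate receptor, by 0.15 (limma adjusted p = 0.00456 and 0.0189). M6PR no longer passed when TGF-β1 replicate 1, 2 or 3 or silymarin replicate 1 was left out (limma adjusted p = 0.0636 to 0.0886). The 2 that fell both act in making the mannose 6-phosphate tag, GNPTAB by 0.28 and NAGPA by 0.33 (limma adjusted p = 0.00077 and 0.00197). LGMN, legumain, which cleaves several cathepsin precursors, had 3012 ± 101 and 3111 ± 47.0 normalized counts (log2 fold change 0.05, limma adjusted p = 0.488).

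Other lysosomal hydrolases moved both ways. Of 6 measured lysosomal and related peptidases outside the cathepsins, 2 fell and none rose. SCPEP1, a serine carboxypeptidase, fell by 0.22 (limma adjusted p = 0.00581), and CPQ, with means of 19.8 and 10.6 normalized counts, fell by 0.84 (limma adjusted p = 0.0242). Only SCPEP1 fell when TGF-β1 replicate 1 or 2, or silymarin replicate 1 or 3, was removed, and 3 fell without silymarin replicate 2. TPP1 had a log2 fold change of -0.04 (limma adjusted p = 0.565). Among 31 measured glycosidases, sulfatases and lipases, 5 rose and 8 fell, with a median of -0.02. The β-mannosidase gene MANBA fell by 0.60 and GALC, which degrades galactosylceramide, from 103, 73.4 and 107 normalized counts to 45.9, 39.5 and 39.8. The acid lipase gene LIPA rose by 0.42 and the acid ceramidase gene ASAH1 by 0.38. Without silymarin replicate 2, 9 rose and 9 fell, and without TGF-β1 replicate 1, 3 rose and 7 fell.

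Of 16 lysosomal membrane and associated genes 3 rose, 3 fell and 10 did not pass. The cholesterol exporters NPC2 and NPC1 rose by 0.44 and 0.41, and LAMP3, at 4.35 ± 1.86 normalized counts with TGF-β1, rose to 18.8 ± 1.04. LAMP1, LAPTM4A and CD63 fell by 0.24, 0.27 and 0.17. The number that fell was 2 without any of the TGF-β1 replicates and 5 without silymarin replicate 2. Of 20 measured proton pump (V-ATPase) genes, 15 did not pass, and the median was 0.01. The 3 that fell were ATP6V0D2, from 429 ± 22.7 to 79.3 ± 7.15 normalized counts (log2 fold change -2.42, limma adjusted p = 1.23e-09), ATP6V1B1 (-1.43) and TCIRG1 (-0.35). ATP6V0D2 and ATP6V1B1 encode subunit forms of restricted tissues, and TCIRG1 the form used by osteoclasts. Exons of same-strand genes cover 62.4% of the exon bases of ATP6V1B1, and how such reads were assigned is not known. ATP6V0B and ATP6V0A2 rose by 0.27 and 0.26. Without silymarin replicate 2, 5 rose and 5 fell, and without TGF-β1 replicate 2, 1 rose.

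**Figure D5:**
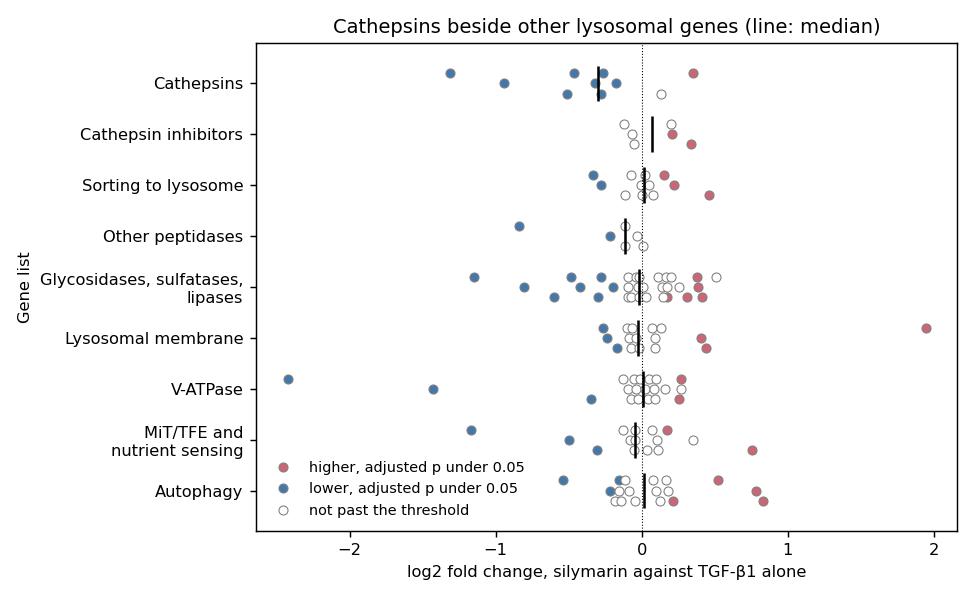
Log2 fold change (x axis, silymarin with TGF-β1 against TGF-β1 alone) of every tested gene in 9 lists of lysosomal function (rows). Points are genes, coloured where the adjusted p was under 0.05, and the vertical line is the list's median, -0.30 for the cathepsins and between -0.12 and 0.07 for the others. The other cathepsins, of which CTSK and CTSO were tested with a median of -0.38, are not drawn.

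MiT/TFE factors and their regulators had 2 rises, 3 falls and 10 genes not past of 15 measured. TFEB, a master regulator of lysosomal genes, fell by 0.50, from 1410, 1582 and 1565 to 1202, 920 and 1125 normalized counts (limma adjusted p = 0.000629). Its relative MITF rose by 0.75, from 146 ± 8.04 to 247 ± 27.4 (limma adjusted p = 9.3e-05). TFE3 had a log2 fold change of -0.13 (limma adjusted p = 0.174) and fell without silymarin replicate 3 (-0.21, limma adjusted p = 0.0254). TFEC and FNIP2 fell by 1.17 and 0.31, and FNIP1 rose by 0.17. FNIP1 missed the threshold when TGF-β1 replicate 1, 2 or 3 or silymarin replicate 1 was left out (limma adjusted p = 0.055 to 0.126), and TFEC without TGF-β1 replicate 1 (limma adjusted p = 0.09). Of 18 measured autophagy genes 4 rose, 3 fell and 11 did not pass. GABARAPL1, an LC3-family gene, rose by 0.83, from 5191 ± 104 to 9240 ± 48.9 normalized counts (limma adjusted p = 1.08e-08). The kinase gene ULK1 rose by 0.52, the cargo receptor gene SQSTM1 by 0.79 and MAP1LC3B by 0.21. The number that fell was 1 without TGF-β1 replicate 2 and 5 without silymarin replicate 3, and 6 rose without silymarin replicate 2. The 3 that fell were ATG5, MAP1LC3A and BECN1, by 0.21, 0.54 and 0.16, BECN1 with an adjusted p (limma) of 0.0855 to 0.118 when a TGF-β1 replicate or silymarin replicate 1 was left out.

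Of 9 epidermal genes tied to cathepsins D, L and V, 6 were measured, of which FLG rose and TGM1 and IVL fell. TGM1, a cross-linking enzyme of cornification, had 498, 481 and 458 normalized counts with TGF-β1 and 175, 145 and 162 with silymarin. FLG, filaggrin, had 559, 523 and 535 and then 909, 711 and 1028, all higher with silymarin (log2 fold change 0.70, SE 0.106, limma adjusted p = 0.000196). IVL, involucrin, fell by 1.61. TGM3, TGM5 and LOR did not pass the filter.

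Likeness of pattern was measured as the root-mean-square difference of log2 values over the 6 libraries, each gene centred on its own mean, among 13496 genes whose mean reached 50 normalized counts. The genes closest to CTSL, the member that rose, were TUBGCP5 (0.0147), RABEP1 (0.0226) and ARL2BP (0.0265). TUBGCP5 belongs to the γ-tubulin complex and RABEP1 encodes rabaptin-5 of early endosomes. Closest to CTSS, the member that fell most, were RP11-345M22.2 (0.128), AMTN (0.137) and CXCL6 (0.14), the last a chemokine gene. The distances around CTSS were larger than those around CTSL. These are descriptions over 6 libraries in 2 groups and carry no test.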

How the data were processed

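Per the submitters' processing notes, the tools were bcl2fastq 2.18.12, cutadapt 1.15, TopHat2 2.1.1, featureCounts from Subread 1.5.2 and DESeq2. No source used here gives the build, annotation or strand setting. The deposited values are a signal, read counts divided by a size factor per library: in all 6 libraries 100% of values were whole multiples of 1 step (tolerance 1e-06 reads) and gave whole reads.

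In R 4.3.3, limma 3.58.1 with a trended prior was fitted to log2(value + 1) over 6 libraries, with group as the only term and Benjamini-Hochberg adjustment over all tested genes. edgeR 4.0.16 was run on recovered reads of 5 libraries, leaving out TGF-β1 replicate 3 (step 1.01136), and called 4661 of 17843 genes. The procedure was tested on simulated counts with the same assumed spread for all genes. It called 2 of 50 genes changed 1.1-fold and 26 of 50 changed 1.25-fold. At 1.5-fold it called 47 of 50, and at 2-fold 50 of 50. Of its calls, 5.3% were on unchanged genes. Changes of 1.1-fold were thus mostly missed. Positions and lengths are from GENCODE 29 (GRCh38), promoters from RefSeq (GRCh38.p14).

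The members and lists were chosen with earlier results of these data known. Named genes were all members, up to 4 genes of smallest p per other list, members moving against their list, and the genes nearest in pattern. PTPRC, CIITA, ATP6V0C, CD68, genes listed at 0 and others with a p that missed the threshold were named after their values were seen. P-values of the main fit rest on the spread among 3 replicates per group and on the trended prior of limma, which draws on all tested genes. The limma SE and intervals share that prior, so they do not give the spread of a gene's own libraries alone.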

Additional observations from a re-analysis of the deposited data

How the results depend on the processing

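The 10 members were refitted under 16 alternatives, and no log2 fold change reversed. The stricter threshold, the changed filters and the replicate block could not reverse one, since they leave the log2 fold change as it was. CTSB, CTSC, CTSF, CTSH, CTSL, CTSS, CTSV and CTSZ kept their calls in all 16, CTSD in 9, and CTSA was called in 1. Leaving out 1 library at a time gave 1 to 2 members higher, 7 to 8 lower and 4390 to 7227 genes changed in the whole table, against 5912 with all libraries. At an adjusted p under 0.01, 3861 genes changed, and 1 member was higher and 7 lower. Equal replicate numbers did not pair the libraries: deviations from group means correlated at -0.0392, 0.0422 and 0.0229 for replicates 1, 2 and 3 across 17296 genes. With the replicate block, 5678 genes changed (32.8%), 1 member was higher and 8 were lower. Of the other genes named, M6PR, FNIP1, BECN1 and CD14 lost their calls with the block (limma adjusted p = 0.0564, 0.0509, 0.0657 and 0.0511). CTSS had the fewest normalized counts of the members, 29.4 to 109, and the effect of depth on the members was not tested. Levels per kilobase moved with the length used, as CTSH did from 5219 to 14040 with TGF-β1 per kilobase of the longest transcript.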
